A study of Mus musculus with 6 samples.

Results

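Metallothionein 1 and 2 (Mt1, Mt2), the copper exporters Atp7a and Atp7b, the copper importer Slc31a1, the zinc exporter Slc30a1 and the zinc importers Slc39a4, Slc39a8 and Slc39a14 were followed in whole lungs of control mice and of mice labelled Foxa2-/-. The 9 genes are read by 19 of the 45037 probe sets compared, and every probe set annotated to exactly 1 of these genes was kept and is given on its own. The genes were chosen by their null and control values on these same 6 arrays. Their differences between the groups are therefore a description. Counts of those that passed a threshold are given beside the share or count over the whole array, and support nothing.

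Each lung RNA was hybridised to 1 Affymetrix MOE430 V2 mouse array, 3 arrays for controls and 3 for Foxa2-/- lungs at postnatal day 15. Foxa2, a forkhead factor, acts in the epithelium of the airways and alveoli, and the series was made to ask how its loss bears on type 2 inflammation and goblet cells. The control group carries the genotype label wildtype and the other group the label Foxa2-/-, and the design text calls the controls littermates. All 6 samples carry the same strain text, SPC(+)Cre(-), with doxycycline (Dox) from embryonic day 6.5 to 12.5, which goes against the null label of 3 of them. SPC is the surfactant protein C gene, whose promoter is used to drive transgenes in lung epithelium, and the labels name no other allele. Whether every array stands for its own animal is not in the labels, and the spread between replicates may be partly technical.

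Metallothioneins are small, cysteine-rich proteins that bind zinc and copper in the cytosol. Their genes are switched on by the zinc-sensing factor MTF1 through metal response elements in the promoter, and also by glucocorticoids, inflammation and oxidative stress. Zinc enters the cytosol through the ZIP (Slc39) proteins and leaves it through the ZnT (Slc30) proteins. Copper enters through CTR1 (Slc31a1) and is pumped into the secretory pathway and out of the cell by the ATPases ATP7A and ATP7B, which are mutated in Menkes and Wilson disease.

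The promoters of the 3 genes with the largest differences are shown first, to set their letters beside the array values. The bases before the start site of Mt2, Mt1 and Atp7b are from RefSeq (GRCm38.p6), 5′ to 3′ on the gene's own strand. Capitals mark matches on either strand to the core of the metal response element, TGCACNC or TGCGCNC.
Mt2, chr8:94172368-94172617, plus strand: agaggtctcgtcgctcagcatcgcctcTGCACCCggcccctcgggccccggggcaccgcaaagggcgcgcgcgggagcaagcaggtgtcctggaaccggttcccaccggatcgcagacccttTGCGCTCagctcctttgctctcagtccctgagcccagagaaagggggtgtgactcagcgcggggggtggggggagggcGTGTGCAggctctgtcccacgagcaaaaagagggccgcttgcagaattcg
Mt1, chr8:94179059-94179088, plus strand: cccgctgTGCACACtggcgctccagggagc
Atp7b, chr8:22060075-22060324, minus strand: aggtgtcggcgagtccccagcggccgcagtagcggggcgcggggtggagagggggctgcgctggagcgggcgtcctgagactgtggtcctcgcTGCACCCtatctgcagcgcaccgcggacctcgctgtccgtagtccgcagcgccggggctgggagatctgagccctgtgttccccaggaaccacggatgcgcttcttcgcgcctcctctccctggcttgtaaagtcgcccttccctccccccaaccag
Only 30 bases are shown for Mt1, a length set by choice. Another RefSeq model of the gene starts 206 bases further upstream, so the bases shown lie inside that model. In the stretches shown, Mt2 held 3 cores, at 223 to 217, 128 to 122 and 50 to 44 bases before its start site. The last of these lies on the opposite strand. Mt1 held 1 core at 23 to 17 bases before its start site, and Atp7b held 1 at 157 to 151.

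Counted over the whole RefSeq window, from 250 bases before the start to 50 after it, Mt2 had 4 metal response element cores and Mt1 had 3. The Mt1 cores not shown above begin 2 and 20 bases after the annotated start site of this window, and the remaining Mt2 core 4 bases after its own. Where transcription starts in the lung was not analysed, so the place of these cores relative to the transcript is not known. Cores beyond the windows were not counted. Atp7a and Slc30a1 had 2 each and Atp7b had 1. Slc31a1 had 0, and the 2 windows of Slc39a8 had 0 and 1. Of all 32851 promoter windows of this length, 25.7% held at least 1 such core, 7.11% at least 2, 1.97% at least 3 and 0.517% at least 4. The letters of the forkhead core TGTTTAC, searched on both strands, were in 0 of the 8 windows of these genes and in 3.65% of all windows. The antioxidant response element core TGACNNNGC was found in Mt2, Slc30a1 and 1 of the 2 Slc39a8 windows, and in 12.4% of all windows. A match is a run of letters, not a bound site, and no match says only that these letters are not in this window. Slc39a4 and Slc39a14 are without a sequence here.

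Foxa2 itself read 10.28, 10.56 and 10.28 on the log2 scale in control replicates 1 to 3, and 7.72, 5.38 and 5.13 in null replicates 1 to 3. Its level was lower on every null array, least so in null replicate 1, with a difference of -4.30 (limma, adjusted p = 0.0599 over 18193 genes). Sftpc, Scgb1a1 and Ager, which mark alveolar type II, airway and alveolar type I cells, were all above 14 on every array. Array medians ran from 7.85 to 7.91 and Pearson's r between arrays, across probe sets, from 0.972 to 0.992. Control replicate 2 and null replicates 2 and 3 share the first number of their sample titles, whose meaning the labels do not give, and the differences within these 3 arrays (1 control, 2 null) are given for each of the 19 probe sets below.

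Mt1 was higher in every Foxa2-/- lung on both of its probe sets. On the brighter one (1422557_s_at, brighter on average than 94.9% of probe sets) the controls read 11.81, 11.49 and 11.86 and the null lungs 12.85, 12.79 and 13.00. The null arrays lie close together, above every control. The letter s in the name of this probe set marks probes that can match more than 1 transcript. The mean went from 11.72 ± 0.20 to 12.88 ± 0.11 (SD, n = 3 each), a log2 difference of 1.16 (SE 0.14), or 2.23-fold. The other probe set (1451612_at) read 7.36, 6.87 and 6.68 in controls and 9.98, 8.76 and 9.47 in null lungs, a difference of 2.43 (SE 0.33), or 5.39-fold. It too was above all controls on each null array, with null replicate 1 the highest. Signals of different probe sets are not on one scale, so the larger difference on the dimmer one says nothing of transcript amounts. Within the arrays that share a title number (1 control, 2 null) the differences were 1.40 and 2.24.

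Mt2, the neighbour of Mt1 in a cluster that also holds Mt3 and Mt4, is read by 1 probe set, brighter on average than 97.3% of all. The controls read 12.88, 12.14 and 12.41 and the null lungs 12.64, 13.47 and 13.40. Null replicates 2 and 3 were above every control, whereas null replicate 1 lay inside the control range, so the groups overlapped. The mean was 12.48 ± 0.38 in controls and 13.17 ± 0.46 in null lungs (SD, n = 3 each), a log2 difference of 0.69 (SE 0.29), or 1.62-fold. Measured from the control mean, null replicates 1, 2 and 3 were higher by 0.16, 1.00 and 0.92 for Mt2 and by 1.13, 1.07 and 1.28 for Mt1 on its brighter probe set. Null replicate 1 was thus raised for Mt1 and not for Mt2. Within the shared title number the Mt2 difference was 1.30, and it was 0.96 without null replicate 1.

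**Figure D1:**
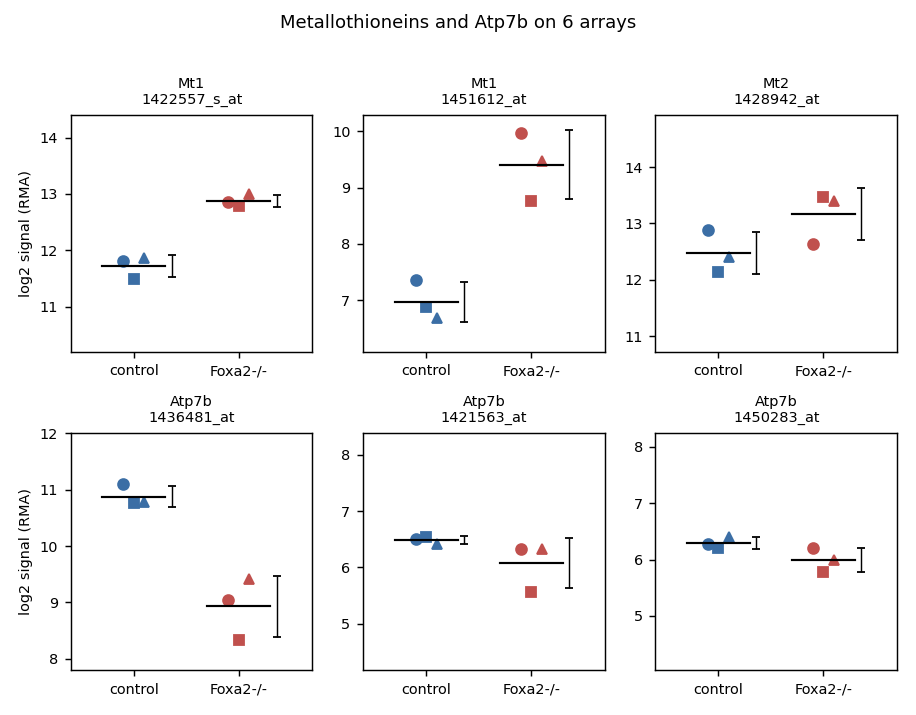
Log2 signal of the 6 probe sets of Mt1, Mt2 and Atp7b, one panel each, for control and Foxa2-/- lungs. Circles, squares and triangles are replicates 1, 2 and 3, bars are means and error bars the SD (n = 3); every panel spans the same number of log2 units, and its position on the scale is its own. The null arrays lie above all controls on both Mt1 probe sets and below them on all 3 Atp7b probe sets, and null replicate 1 lies within the controls for Mt2.

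Atp7b, the copper pump best known from the liver, where it loads copper onto ceruloplasmin and exports it to bile, was lower in the null lungs. Its brightest probe set (1436481_at) read 11.10, 10.76 and 10.78 in controls and 9.04, 8.34 and 9.41 in null lungs. All null arrays are below all controls, with a gap of 1.35 between the groups, and null replicate 2 is the lowest. The mean went from 10.88 ± 0.19 to 8.93 ± 0.54 (SD, n = 3 each), a log2 difference of -1.95 (SE 0.28), or 3.86-fold lower. The within-number difference was -1.88.

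The other Atp7b probe sets gave much smaller differences. Probe set 1421563_at read 6.51, 6.54 and 6.41 in controls and 6.33, 5.57 and 6.33 in null lungs, a difference of -0.41 (SE 0.22). Probe set 1450283_at read 6.27, 6.21 and 6.41 in controls and 6.20, 5.78 and 5.99 in null lungs, a difference of -0.30 (SE 0.14). Within the shared title number the differences were -0.59 and -0.32. On both, the null arrays were below every control, although null replicates 1 and 3 on the first and null replicate 1 on the second lay less than 0.1 under the lowest control. These probe sets are dim, at the 31.2 and 29.4 percentile of mean signal against 73.6 for the brightest, and no difference of the brightest one's size appeared on them. Averaging the 3 gave a difference of -0.89 (SE 0.19). Where on the transcript each probe set lies was not analysed here.

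Atp7a, the copper pump of most tissues outside the liver, read 11.88, 12.01 and 11.86 in controls and 11.29, 11.86 and 11.95 in null lungs on its brighter probe set, a difference of -0.22 (SE 0.19). On its other probe set (1418774_a_at) the controls read 10.53, 10.22 and 10.34 and the null lungs 11.33, 10.19 and 10.16, a difference of 0.20 (SE 0.32). The 2 probe sets differ in sign, and null replicate 1 stands apart on both. That array was 0.61 below the mean of null replicates 2 and 3 on the first probe set and 1.15 above it on the other. Without it the differences were -0.02 and -0.19. The groups overlapped on both, and within the shared title number the differences were -0.11 and -0.04.

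Slc31a1, the high-affinity copper importer of the plasma membrane, showed small positive differences. One probe set (1455285_at) read 10.71, 10.95 and 11.13 in controls and 11.14, 11.32 and 11.46 in null lungs, a difference of 0.38 (SE 0.16). The null arrays were above every control there, the lowest of them by 0.01 only. The brighter probe set (1433750_at) read 11.40, 11.26 and 11.32 in controls and 11.47, 11.32 and 11.71 in null lungs, a difference of 0.17 (SE 0.14), and the groups overlapped. Within the shared title number the differences were 0.44 on the first of these and 0.26 on the brighter one.

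The zinc transporters gave differences between -0.26 and 0.22. Slc30a1 (ZnT1), the plasma membrane zinc exporter that MTF1 also controls, read 12.24, 12.33 and 12.21 in controls and 11.82, 12.08 and 12.27 in null lungs, a difference of -0.20 (SE 0.14). Its dimmer probe set gave -0.18 (SE 0.14), and the groups overlapped on both. Within the shared title number the differences were -0.15 and -0.17. The Slc30a1 differences were negative, whereas those of Mt1 and Mt2 were positive. With these SEs and overlapping groups, the sign for Slc30a1 is not resolved. A part of zinc or MTF1 in the Mt1 and Mt2 differences was not tested.

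Slc39a8 (ZIP8), an importer of zinc and manganese, read 12.82, 12.91 and 13.06 in controls and 12.55, 12.92 and 12.75 in null lungs, a difference of -0.19 (SE 0.14), with overlap. Its dimmer probe set gave -0.26 (SE 0.30), with null replicate 1 lying 0.78 below the mean of the other null arrays, and it was 0.00 without that array. Within the shared title number the Slc39a8 differences were -0.08 on the brighter probe set and 0.15, of the opposite sign to the pooled value, on the dimmer one. Slc39a14 (ZIP14), which takes up zinc, manganese and iron and rises in the liver in inflammation, had 4 probe sets with differences of 0.22, 0.18, 0.08 and 0.09. On 1438490_at the null arrays (7.79, 7.64 and 7.71) were above the controls (7.51, 7.52 and 7.57), and on the other 3 the groups overlapped. In the same order, the differences within the shared title number were 0.38, 0.15, -0.03 and 0.15, so the third changed sign. Slc39a4 (ZIP4), the intestinal zinc importer mutated in acrodermatitis enteropathica, read 9.80, 9.66 and 9.94 in controls and 9.86, 9.74 and 9.73 in null lungs, a difference of -0.03 (SE 0.12), which was 0.08 within the shared title number.

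**Figure D2:**
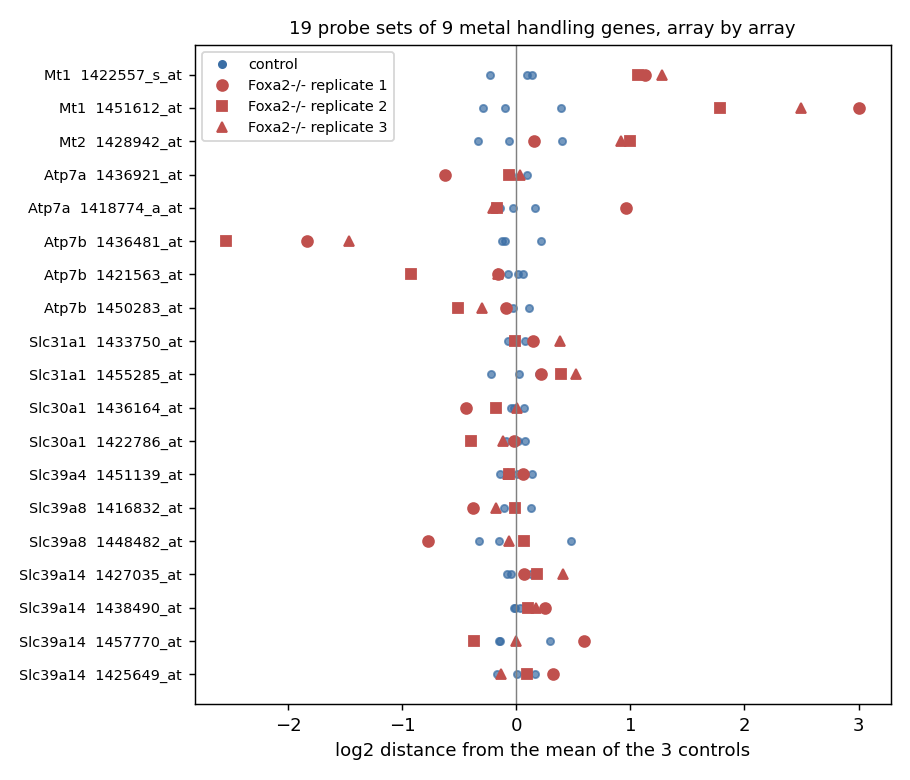
Log2 distance of each array from the mean of the 3 controls, for the 19 probe sets of the 9 genes. Blue dots are controls and red circles, squares and triangles are null replicates 1, 2 and 3. The null arrays stand well clear of the controls on both Mt1 probe sets and on 1 Atp7b probe set, and null replicate 1 parts from the other null arrays on Mt2 and on both Atp7a probe sets.

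Over the 19 probe sets, 10 differences were positive and 9 negative, with a median of 0.08 against 0.01 over all probe sets. Every null array was above every control on 4 of the 19 and below on 3, while the same was true of 9.73% (above) and 7.76% (below) of all probe sets. The groups overlapped on the remaining 12. By limma, 0 of the 19 had an adjusted p under 0.05 (5 had an unadjusted p under 0.05, as had 4813 of the 45037), where 0.0999% of all probe sets passed. With the brightest probe set standing for each gene, 2 of the 9 passed, where 0.572% of 18193 genes did. These were Mt1 (higher, adjusted p = 0.036 by limma) and Atp7b (lower, adjusted p = 0.0499 by limma). Atp7b thus lay at the threshold, and with its probe sets averaged it did not pass (adjusted p = 0.117 by limma). At the gene level Atp7b no longer passed when any 1 array was left out or with cyclic loess scaling, and on leaving out 1 array Mt1 passed only without null replicate 1. With the title number as a fixed block neither passed. Because the same contrast chose the genes, nothing is read from these counts or adjusted p-values.

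A wider set of 59 genes of zinc, copper and iron handling, of which 56 could be measured, was read with 1 probe set a gene. Only Cybrd1 passed, 55 did not, and 7 had an unadjusted p under 0.05 (limma, adjusted over all genes). Over all 18193 genes 0.572% passed and 2246 had an unadjusted p under 0.05, a share close to that of the 56. Every null array was above every control for 8 of the 56 and below for 1, against 10.8% and 8.73% of all genes. The median difference was 0.04, against 0.01 over all genes. The lists were drawn up with earlier results of these data known, and nothing particular to metal handling is read from them.

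Cybrd1 encodes a membrane reductase, known as duodenal cytochrome b, that reduces iron and copper outside the cell. It read 10.10, 10.21 and 9.89 in controls and 11.56, 11.42 and 11.31 in null lungs, so the null arrays were well above the controls. The difference was 1.36 (SE 0.13, 95% interval 1.05 to 1.68), or 2.57-fold, with an adjusted p of 0.0217 by limma. Its other probe set gave 1.54, and the difference within the shared title number was 1.16. It still passed without null replicate 1 (adjusted p = 0.0268 by limma) but not without any other array (adjusted p from 0.0647 to 0.138) or with the title number as a fixed block (adjusted p = 0.264). The iron genes that did not pass but lay above all controls, named after their values were seen, were the iron transporter of macrophage phagosomes Slc11a1 (0.73, adjusted p = 0.207 by limma) and heme oxygenase Hmox1 (0.88, adjusted p = 0.261). The iron list of 11 measured genes had a median of 0.07, and 0 of them lay below all controls. Its lowest difference, also named after the values were seen, was that of the iron hormone gene Hamp. It was -1.16 (adjusted p = 0.506 by limma), with overlap.

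Among the other metallothioneins, Mt3 gave 0.27 (SE 0.14, adjusted p = 0.488 by limma), and Mtf1, which encodes the metal sensor, gave 0.13 (SE 0.13, adjusted p = 0.733). The remaining 4 Mtf1 probe sets had negative differences, and the mean of all 5 was -0.07. Mt4 was dim on every array.

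Among 9 other zinc exporters, with a median of -0.07, Slc30a2 (ZnT2), which loads zinc into vesicles of secretory cells, had the largest difference. It read 5.70, 6.40 and 7.16 in controls and 9.60, 7.88 and 8.63 in null lungs. The null arrays were all above the controls, but both groups were widely spread, and the difference of 2.28 (SE 0.52) did not pass (adjusted p = 0.139 by limma). Slc30a4 was below all controls, with -0.40 (adjusted p = 0.446 by limma). Of 11 other zinc importers, with a median of -0.01, Slc39a11 was above all controls, with 0.76 (SE 0.16, adjusted p = 0.125 by limma). The dim Slc39a12 gave 0.84 (adjusted p = 0.512 by limma) with overlap.

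Of 12 other genes of copper handling, with a median of 0.11, Atox1, the chaperone that hands copper to ATP7A and ATP7B, was above all controls. Its difference was 0.33 (SE 0.13, adjusted p = 0.369 by limma), and its other probe sets gave 0.35, 0.09 and -0.09. The low-affinity importer Slc31a2 gave 0.42 (adjusted p = 0.503 by limma) with overlap, and 0.81 on its other probe set. Of 10 copper enzymes, with a median of 0.01, the lysyl oxidase family member Loxl4 was above all controls, with 0.42 (adjusted p = 0.186 by limma), and extracellular superoxide dismutase Sod3 gave 0.18 (adjusted p = 0.632). Neither passed.

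**Figure D3:**
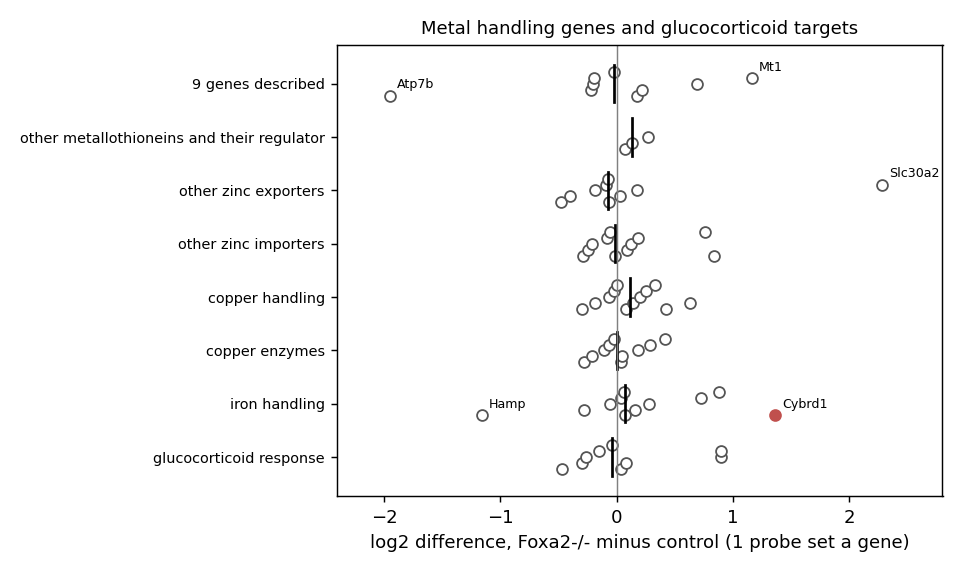
Log2 difference, Foxa2-/- minus control, with 1 probe set a gene (circles), for the 9 genes described and 7 lists of related genes. The black bar is each list's median, and red marks a gene outside the 9 that passed the adjusted threshold, which was Cybrd1 only.

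Glucocorticoids raise metallothionein transcripts in many tissues, and 9 of their best known target genes were read alongside. Of these 0 passed, 0 had an unadjusted p under 0.05 (limma), and the groups overlapped for every one. Over all 18193 genes 0.572% passed and 2246 had an unadjusted p under 0.05 (limma). Every null array was above every control for 10.8% of all genes and below for 8.73%. A list of 9 genes is too short to be read against these shares. Klf9 gave -0.30 (adjusted p = 0.516 by limma) and Fkbp5 0.90 (adjusted p = 0.608 by limma). Fkbp5 was highest in null replicate 3, which read 11.71 against 9.42 and 10.19 in the other null lungs. Its other probe sets gave 1.29 and 0.07, with overlap, and those of Klf9 ran from -0.52 to -0.02. The list's median was -0.04. A part of glucocorticoids in the Mt1 and Mt2 differences was not tested.

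Genes whose values over the 6 arrays most resembled those of Mt1, Mt2 and Atp7b (brightest probe sets) were sought among 2313 genes with an SD of at least 0.5. For Mt1 they were Serpina11, Ptgds, Orm2, Lemd1 and Tmem213, with Pearson's r of 0.995, 0.993, 0.985, 0.985 and 0.985, and 44 genes exceeded 0.95. For Mt2 they were Ros1, Vnn1, Mucl1, D130051D11Rik and Spo11, with r of 0.954, 0.953, 0.946, 0.935 and 0.929, and 2 genes exceeded 0.95. For Atp7b they were Gsta3, Slc16a11, Trim17, 4932441J04Rik and A930005H10Rik, with r of 0.993, 0.983, 0.974, 0.964 and 0.960, and 10 exceeded 0.95. These r values come from 6 arrays in 2 groups, so any gene that differs between the groups scores highly, and they are given as a description.

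In whole-lung RNA, more cells of a type and more RNA per cell cannot be told apart. Most markers of alveolar macrophages gave positive differences, the sign of Mt1. Of 9 such markers 7 were above all controls (10.8% of all genes were), Fabp1 gave -1.05 with overlap, and Itgax and Cd68 passed (differences of 1.94 and 1.45, adjusted p = 0.036 and 0.0198 by limma), where 0.572% of all genes did. On leaving out 1 array both passed only without null replicate 1 (adjusted p = 0.0401 and 0.0206 by limma). Without any other array the adjusted p ran from 0.0696 to 0.168 for Itgax and from 0.0547 to 0.138 for Cd68, and with the title number as a fixed block it was 0.285 and 0.242. The log2 summed signal of the 9 markers ran from 14.57 to 14.75 in the controls, against 15.19 to 15.52 in the null lungs. Such sums are carried mostly by the brightest probe sets, here Chil3 (difference 0.76) and Car4 (0.20). They are not a measure of cell number, and whether the signal of each marker comes from macrophages alone was not analysed. Of 5 airway epithelial markers 0 passed (2 had an unadjusted p under 0.05 by limma), and all 5 differences were negative, the sign of Atp7b, from -0.60 to -0.07. Every null array was below every control for 2 of the 5, as for 8.73% of all genes. Their summed signal lay between 15.73 and 15.84 in the controls, against 15.46 to 15.65 in the null lungs. Alveolar type II markers (16.26 to 16.40 against 16.40 to 16.47), alveolar type I (15.66 to 15.75 against 15.55 to 15.81), endothelial (14.39 to 14.55 against 14.07 to 14.49) and fibroblast markers (15.42 to 15.56 against 15.32 to 15.42) had ranges that overlapped between the groups. For alveolar type II and fibroblast markers the overlap was slight, at 16.40 and 15.42. Of 7 type II markers 2 were above all controls (10.8% of all genes were) and 0 passed. Of 4 endothelial markers 1 was below all controls (8.73% of all genes were) and 0 passed. The sign of Atp7b was not particular to airway markers. All 4 endothelial differences (-0.36 to -0.05) and all 4 fibroblast differences (-0.19 to -0.01) were negative too. Liver markers, read because Atp7b and Mt1 are abundant in liver, were low in both groups (8.54 to 8.86 against 8.58 to 8.86). The Gapdh 3′ minus 5′ signal, a measure of RNA length, ran from 1.06 to 1.23 in the controls, against 0.91 to 0.97 in the null lungs. The same measure for Actb overlapped, with 0.46 to 0.65 in the controls and 0.43 to 0.47 in the null lungs. The part of these cell types or of RNA quality in the Mt1, Mt2, Atp7b and Cybrd1 differences was not tested.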

How the data were processed

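The authors made the log2 values with RMA, per the submitters' processing notes. RMA brings arrays to a common distribution, so a shift of most genes would not be seen; version and settings not given in the sources used here. Of 45101 probe sets, 64 Affymetrix controls were left out and 45037 were compared with no filter on dim signal. In the platform annotation 34945 had 1 gene symbol, 932 several and 9160 none. Groups came from the genotype label. Replicate numbers follow accession order and pair nothing. Null minus control was fitted with limma 3.58.1 (lmFit, eBayes) in R 4.3.3, two-sided, with Benjamini-Hochberg adjustment and a threshold of 0.05; the script was tested on simulated data. At the gene level the probe set with the highest mean stood for each of 18193 genes. The 9 genes and all lists were chosen with earlier results of these data known. Outside the 9, the genes named were Foxa2, the 5 most alike by Pearson's r, and genes of each list. From a list these were those that passed or, where none did, the 2 with the smallest p. Slc11a1, Hmox1, Hamp, Itgax, Cd68, Fabp1, Chil3 and Car4 were added after their values were seen. Marker genes and Sftpc, Scgb1a1 and Ager served as checks. Alternatives were median centring, cyclic loess, a filter on dim probe sets, trend and robust eBayes, array weights, a fixed or random block (statmod 1.5.0) for the title number or a restriction to it, each array left out, averaging the probe sets of a gene, and a threshold of 0.1.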

Additional observations from a re-analysis of the deposited data

How the results depend on the processing

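The count of all probe sets past the threshold, 45 in the analysis reported, was 6 with cyclic loess, 72 with trend and robust eBayes, 564 with array weights, 0 with the title number as a fixed block (limma, 4507 at an unadjusted p under 0.05), 279 with it as a random block, 232 at a threshold of 0.1, 104 with 1 probe set a gene and 99 with probe sets averaged by gene. Leaving out 1 array gave 0 to 144; null replicate 1 left out gave 144, null replicate 2 gave 3, and each of the others gave 0 (limma, 3477 to 5866 at an unadjusted p under 0.05 over the 6 fits). Of the 19 probe sets of the 9 genes, 0 passed; 1 (Mt1) passed among probe sets brighter than the median and with trend and robust eBayes, 2 (both of Mt1) with the random block, and 3 (both of Mt1 and the brightest of Atp7b) with array weights and at 0.1. Of all probe sets brighter than the median, 59 passed. With 1 probe set a gene 2 genes passed (Mt1, Atp7b), and with probe sets averaged by gene 1 did (Mt1). With 1 probe set a gene, Atp7b no longer passed with cyclic loess, with the fixed block or without any 1 array, and Mt1 no longer passed with the fixed block or without any array other than null replicate 1. The wider lists gave 0 instead of 1 (Cybrd1) with the fixed block, and 0 to 1 on leaving out 1 array, with 1 only without null replicate 1. Over the alternatives tried, the Mt1 differences ran from 1.05 to 1.40 and from 2.14 to 2.75, Mt2 from 0.52 to 1.30, and the brightest Atp7b probe set from -2.19 to -1.65. The sign held under every alternative for 14 of the 19; the others were 1418774_a_at of Atp7a, Slc39a4, 1448482_at of Slc39a8, and 1457770_at and 1425649_at of Slc39a14. With 3 arrays a group, small differences are not resolved.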
